A study of Mus musculus with 9 samples.

Results

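The genes described here are the chemokines, small secreted proteins that guide migrating cells, and the receptors that read them. They were chosen by symbol alone: every gene named Ccl, Cxcl, Ccr or Cxcr followed by a number, with Cx3cl1, Cx3cr1, Xcl1, Xcr1 and Ackr1 to Ackr4. This rule found 63 of the 55286 genes in the deposited tables, 40 of them ligand genes and 23 receptor genes. RNA was sequenced from 3 groups of 3 mouse libraries: lung explants cultured for 72 h with EPZ5676 (pinometostat), a small molecule that blocks the histone methyltransferase DOT1L, control explants cultured for the same time, and fresh lung, labelled E11.5. All 3 groups started from wild-type lung at E11.5, an early stage of branching, and the labels give no dose, vehicle or strain. The cells are labelled as primary lung cells and the labels name no sort, so epithelium, mesenchyme and blood cells were measured together. Whether replicate libraries were made from different embryos or cultures is not in the labels, so p-values here reflect library-to-library spread, some of which may be technical.

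Chemokines bind G protein-coupled receptors on leukocytes and other cells, and a gradient of ligand sets the direction in which a cell moves. The families are named for the spacing of their cysteines (CC, CXC, XC and CX3C), and in tissue many CC ligands are made by macrophages, while CXCL12 is made by mesenchymal and stromal cells. Atypical receptors bind chemokines without G protein signalling and remove or carry them. In the embryonic lung the macrophages are the main resident leukocytes, and they reach the organ from the yolk sac and fetal liver.

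Levels are deposited TPM (transcript abundance scaled for transcript length and library size), given per library in the order of replicates 1, 2 and 3, and fold changes come from an edgeR quasi-likelihood fit to the counts, with p-values adjusted over all 15158 genes tested. The libraries held 6509563 to 9861452 counts. The tissue label fitted the markers: the summed TPM of 10 epithelial markers was 1566 to 2327 with EPZ5676, 1090 to 1690 in controls and 325 to 346 in fresh lung, and that of 10 mesenchymal markers was 2227 to 2412 with EPZ5676, 2100 to 2719 in controls and 1134 to 1440 in fresh lung. Control 1 held more liver, cartilage and cardiac muscle RNA than the rest. The summed TPM in it was 216 for 7 liver genes, against 1.32 to 24.3 in the 8 other libraries, and 215 for 8 cartilage genes, against 35.5 to 121. For 8 cardiac muscle genes it was 220, against 49.9 to 112 in the other libraries. Xist was high in EPZ5676 2, Control 1 and Control 2 (210 to 281 TPM) and at most 0.77 TPM in the other cultured libraries, with 1 such library among EPZ5676 explants and 2 among controls. Fresh libraries 2 and 3 held both Xist and the Y-linked Ddx3y.

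Of the 63 members, 27 were detected, here meaning a mean of at least 1 TPM in at least 1 group, 20 ligands and 7 receptors. In fresh lung 12 ligands and 7 receptors reached that level, in controls 19 and 5, and with EPZ5676 19 and 4. A further 12 members were listed at 0 in every library, among them Ccl1, Ccl5, Ccl8, Ccl17, Ccl20, Ccl26, Cxcl11, Xcl1, Ccr8 and Ccr1l1. A count of 0 allows up to 3 counts, or 0.304 to 0.461 CPM (counts scaled to library size) at the depth of these libraries. The filter on low counts left 22 members to test, 17 ligands and 5 receptors: Ccl2, Ccl3, Ccl4, Ccl6, Ccl9, Ccl11, Ccl19, Ccl21a, Ccl25, Ccl27a, Ccl28, Cxcl12, Cxcl13, Cxcl14, Cxcl15, Cxcl16, Cx3cl1, Ccr1, Cxcr2, Cxcr4, Cx3cr1 and Ackr3. Members detected but too low in counts to test included Ccl7, Ccl12, Ccl27b and Ackr1.

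The most abundant ligands differed between cultured and fresh lung. The 40 ligand genes summed to 286, 372 and 239 TPM with EPZ5676, to 288, 213 and 323 TPM in controls, and to 176, 167 and 162 TPM in fresh lung. Each cultured library lay above each fresh one. In fresh lung Cxcl12 and Cxcl13 led, Cxcl12 with 36.2% to 45.1% of the summed ligand TPM and Cxcl13 with 17.0% to 35.9%. In cultured lung Cxcl12 held 19.2% to 23.8% with EPZ5676 and 14.98% to 21.7% in controls, and Cxcl13 at most 1.46% and 1.55%. Ccl6, at most 0.426% of ligand TPM in fresh lung, held 14.3% to 27.3% with EPZ5676 and 12.5% to 32.6% in controls. The 23 receptor genes summed to 50.4, 36.3 and 50.7 TPM with EPZ5676, to 65.5, 38.0 and 26.6 TPM in controls, and to 45.0, 32.4 and 38.0 TPM in fresh lung, so that the groups overlapped.

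**Figure D1:**
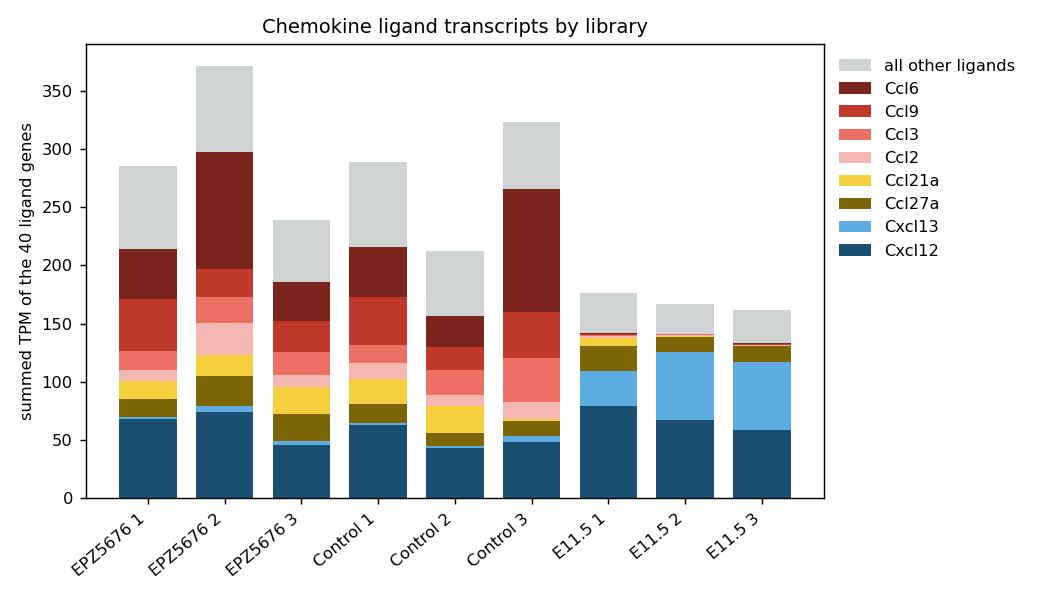
Summed TPM of the 40 chemokine ligand genes in each of the 9 libraries, stacked by gene, with all ligands outside the 8 named ones in grey. The 6 cultured libraries stand at 213 to 372 TPM with a broad red part (Ccl2, Ccl3, Ccl9 and Ccl6), and the 3 fresh libraries at 162 to 176 TPM, mostly Cxcl12 and Cxcl13.

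EPZ5676 explants were set against control explants to ask what DOT1L inhibition does to the cultured lung. No chemokine or receptor passed the threshold: of 22 members tested, 0 were higher and 0 lower with edgeR, where the share of all genes called was 0%. DESeq2 and limma-trend on TPM also called 0 members. The number with an unadjusted p under 0.05 was 2 of 22 members, against 1052 of all 15158 genes. These 2 were Ccr1 and Ccl27a, and both lay above control.

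Ccr1, a receptor for CCL3 and other CC ligands on myeloid cells, had 2.47, 5 and 2.47 TPM with EPZ5676, against 0.79, 1.54 and 2.00 TPM in controls. Its groups did not overlap, and the log2 fold change was 1.16 ± 0.50 (SE, edgeR adjusted p = 0.7), with 0.68 without EPZ5676 2 and 1.59 without Control 3. Ccl27a, a ligand of CCR10, had 15.4, 25.9 and 22.9 TPM with EPZ5676, against 15.97, 11.6 and 12.5 TPM in controls, with EPZ5676 1 inside the control range (log2 fold change 0.72 ± 0.31, edgeR adjusted p = 0.7). Its count was not whole in 8 of 9 libraries, as happens where reads are divided between near-identical copies such as Ccl27b, so its level is an estimate. Over the 22 members the median log2 fold change was 0.11, against -0.0038 over all genes tested, with a range of -0.50 (Cxcl14) to 1.16 (Ccr1). The standard errors of single members were 0.17 to 0.84, and misses of the threshold at that precision do not show equal levels.

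**Figure D2:**
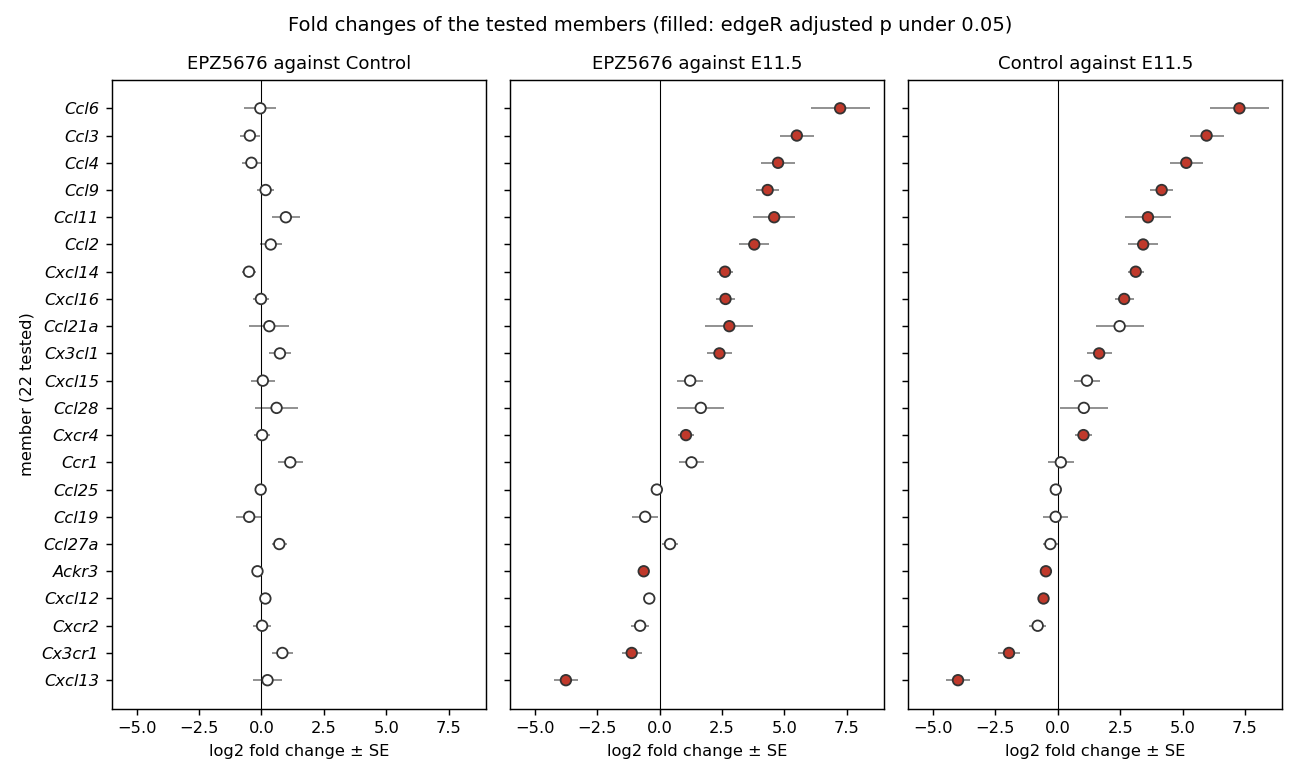
Log2 fold change ± SE (x axis) of the 22 tested members (y axis) in each comparison, from a single edgeR fit to all 9 libraries, with filled points for adjusted p under 0.05. In the left panel (EPZ5676 against Control) no point is filled and all lie between -0.50 and 1.16, while against E11.5 the points run from -4.00 to 7.28.

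Both cultured groups were next set against fresh lung, to ask what differed after 72 h outside the embryo. No fresh lung of a later age is among the groups, so effects of culture and of 72 h of development cannot be told apart. The comparisons share the 3 fresh libraries, so their results are given side by side and not as support for each other. In controls against fresh lung 10 of 22 members rose and 4 fell, where 37.7% of all genes tested were called, 21.1% higher and 16.6% lower. With EPZ5676 against fresh lung 11 members rose and 3 fell, where 40% of all genes were called, 22.1% higher and 17.9% lower. The median log2 fold change of the members was 1.10 in controls and 1.46 with EPZ5676, beside 0.02 over all genes in each comparison. Members could pass the filter through the cultured groups alone, so neither the counts nor the medians speak for all 63 members.

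The largest rises among the tested members were those of CC ligands on a list of 12, mostly ligands that macrophages and monocytes make or answer. The list also holds the eosinophil attractant Ccl11. Of the 12 genes on this list 6 could be tested, and all 6 rose in controls and with EPZ5676: Ccl2, Ccl3, Ccl4, Ccl6, Ccl9 and Ccl11. Of all genes tested, 21.1% were higher in controls and 22.1% with EPZ5676. The fresh counts of these 6 were too low to pass the filter, which they passed through the cultured libraries. That all 6 rose is thus largely set by the filter and is no result about the list. Ccl6, a rodent CC ligand made by myeloid cells, had 42.9, 101 and 34.1 TPM with EPZ5676 and 42.8, 26.6 and 105 TPM in controls, against 0.75, 0.37 and 0.38 TPM in fresh lung. Every cultured library was far above every fresh one, while EPZ5676 2 and Control 3 stood above the rest of their groups. Its log2 fold change was 7.23 ± 1.18 with EPZ5676 (edgeR adjusted p = 0.00263) and 7.28 ± 1.18 in controls (edgeR adjusted p = 0.00288). Counted directly, it had 883 and 915 reads in the EPZ5676 and control groups and 5 in fresh lung, a ratio of CPM of 160 (95% interval 68.4 to 494) and 158 (67.4 to 487), where the exact interval covers counting error only.

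Ccl9, another rodent CC ligand and like CCL3 a ligand of CCR1, had 44.5, 24.0 and 26.1 TPM with EPZ5676 and 42.0, 20.4 and 39.3 TPM in controls, against 1.27, 0.25 and 1.13 TPM in fresh lung. Its log2 fold changes were 4.33 ± 0.46 and 4.16 ± 0.46 (edgeR adjusted p = 9.07e-05 and 0.000146 for EPZ5676 and controls). Its counts were not whole in 9 of 9 libraries and are estimates. Ccl3 and Ccl4, neighbouring genes for inflammatory CC ligands, moved in the same direction. Ccl3 had 16.5, 21.7 and 19.7 TPM with EPZ5676 and 15.6, 21.4 and 38.4 TPM in controls, against 0.76, 0.39 and 0 TPM in fresh lung (log2 fold change 5.50 ± 0.69 and 5.96 ± 0.68, edgeR adjusted p = 0.000175 and 0.000124 for EPZ5676 and controls). Ccl4 had 5.02, 5.20 and 6.56 TPM with EPZ5676 and 8, 7.43 and 6.26 TPM in controls, against 0.46, 0 and 0 TPM in fresh lung. Only 1 Ccl4 read was counted in fresh lung, so the ratio of CPM, 36.3 with EPZ5676 and 47.4 in controls, has wide counting intervals of 6.15 to 1468 and 8.16 to 1906. For Ccl3, with 3 reads in fresh lung, the ratios were 50.8 (17.1 to 249) and 64.7 (21.8 to 316).

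Ccl2, which draws monocytes through CCR2, had 9.70, 27.8 and 10.5 TPM with EPZ5676 and 13.2, 9.41 and 14.1 TPM in controls, against 1.57, 0.72 and 1.07 TPM in fresh lung. The cultured and fresh libraries did not overlap, and EPZ5676 2 was the highest (log2 fold change 3.79 ± 0.59 and 3.42 ± 0.60, edgeR adjusted p = 0.00062 and 0.00144 for EPZ5676 and controls). Ccl11, the eosinophil attractant eotaxin, had 6.20, 5.81 and 2.10 TPM with EPZ5676 and 1.07, 3.24 and 2.69 TPM in controls, against 0, 0.26 and 0.25 TPM in fresh lung. It rose on few reads, 64 and 31 in the cultured groups and 2 in fresh lung, with ratios of CPM of 29 (7.71 to 245) and 13.4 (3.40 to 115) for EPZ5676 and controls. These 6 calls held in both comparisons with each of the 9 libraries left out in turn.

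**Figure D3:**
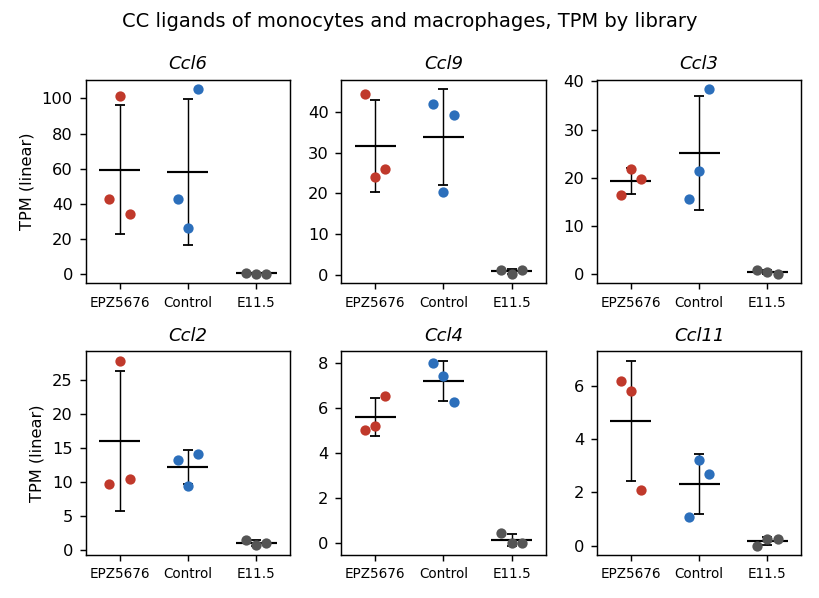
TPM (y axis, linear) of the 6 tested genes on the list of CC ligands of monocytes and macrophages, which includes the eosinophil attractant Ccl11. There is 1 panel a gene, with EPZ5676, Control and E11.5 from left to right, points for libraries and bars for the mean ± SD of 3. All cultured libraries lie above all fresh ones, in Ccl6 at 26.6 to 105 TPM against at most 0.75 TPM.

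The 6 CC ligands that rose lie in 2 clusters. On chromosome 11 of GRCm38 the members Ccl5, Ccl9, Ccl6, Ccl3 and Ccl4 lie within 139 kb (83525778 to 83664683), and 4 of these 5 rose in controls against fresh lung, while Ccl5 was listed at 0 in every library. In a further stretch of 270 kb (82035571 to 82305690) lie Ccl2, Ccl7, Ccl11, Ccl12, Ccl8 and Ccl1, of which the 2 tested rose and 2, Ccl8 and Ccl1, were listed at 0. All 7 tested members on chromosome 11 rose in controls, of 14 members annotated there. Of all genes tested, 21.1% were higher in controls. The 6 CC ligands passed the filter through the cultured libraries, so these counts do not show that a cluster changed as a whole.

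The 250 bases before the RefSeq start (GRCm38.p6) are shown for 3 of the neighbours that rose and for Cxcl13, which fell, so that the regions next to the changed genes can be compared. Each runs 5′ to 3′ along the gene's strand, which is plus for Cxcl13 and minus for the others, and capitals mark matches, on either strand, to GGAAGT (an ETS core, the family of PU.1), TGANTCA (AP-1), the NF-kB consensus, TTGCNNAA (C/EBP) or TATAAA.
Ccl6, chr11:83593088-83593337: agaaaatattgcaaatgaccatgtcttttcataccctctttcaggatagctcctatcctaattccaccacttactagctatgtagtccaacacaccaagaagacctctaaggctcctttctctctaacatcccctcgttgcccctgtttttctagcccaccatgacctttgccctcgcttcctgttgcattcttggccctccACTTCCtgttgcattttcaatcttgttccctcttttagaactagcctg
Ccl9, chr11:83578637-83578886: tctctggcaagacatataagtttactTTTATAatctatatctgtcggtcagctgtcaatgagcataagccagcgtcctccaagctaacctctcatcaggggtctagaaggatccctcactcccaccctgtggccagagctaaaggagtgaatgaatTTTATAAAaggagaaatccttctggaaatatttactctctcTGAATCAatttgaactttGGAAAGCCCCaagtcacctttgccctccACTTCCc
Ccl3, chr11:83649379-83649628: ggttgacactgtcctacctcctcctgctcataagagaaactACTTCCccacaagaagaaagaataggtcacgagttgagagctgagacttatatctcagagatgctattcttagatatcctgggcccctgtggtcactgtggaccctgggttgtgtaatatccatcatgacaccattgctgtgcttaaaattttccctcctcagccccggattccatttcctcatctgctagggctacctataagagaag
Cxcl13, chr5:95956689-95956938: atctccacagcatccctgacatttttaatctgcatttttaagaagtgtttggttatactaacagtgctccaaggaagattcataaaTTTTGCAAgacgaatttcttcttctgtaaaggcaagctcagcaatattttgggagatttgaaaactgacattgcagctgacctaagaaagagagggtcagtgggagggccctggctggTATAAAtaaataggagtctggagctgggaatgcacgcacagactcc
The windows of Ccl6, Ccl9 and Ccl3 hold 1 GGAAGT match each and that of Cxcl13 holds 0, in a genome where 19.7% of 32841 such windows hold at least 1. Ccl9 also has 1 AP-1 match, 1 NF-kB match and 3 TATAAA matches, and Cxcl13 has 1 C/EBP and 1 TATAAA match. AP-1 is matched in 6.75% of all windows, the NF-kB consensus in 3.9%, C/EBP in 9.57% and TATAAA in 12.4%. Among the 53 windows of the 46 members with one, 17 hold GGAAGT, 6 AP-1, 9 the NF-kB consensus, 7 C/EBP and 15 TATAAA. The longest identical run between the Ccl6 and Ccl9 windows is 13 bases, against 8 bases between Ccl3 and any of the other 3. These matches describe letters in a window and say nothing of binding.

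CXC ligands changed in both directions. Cxcl13, which attracts B cells through CXCR5 in lymphoid tissue, fell to 2.12, 5.19 and 3.48 TPM with EPZ5676 and to 2.33, 1.39 and 5.01 TPM in controls, against 30.0, 58.2 and 58.2 TPM in fresh lung. No cultured library came near the lowest fresh one (log2 fold change -3.76 ± 0.48 and -4.00 ± 0.49, edgeR adjusted p = 0.000273 and 0.000265 for EPZ5676 and controls). Its receptor Cxcr5 was at or below 0.18 TPM in every library.

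Cxcl14, a constitutive ligand of epithelia and stroma, had 9.31, 8.30 and 7.32 TPM with EPZ5676 and 16.01, 10.6 and 8.88 TPM in controls, against 2.40, 0.71 and 1.25 TPM in fresh lung. The groups did not overlap between cultured and fresh lung (log2 fold change 2.62 ± 0.32 and 3.12 ± 0.32, edgeR adjusted p = 0.000153 and 6.54e-05 for EPZ5676 and controls), and EPZ5676 against control gave -0.50 ± 0.27 (edgeR adjusted p = 0.773). Cxcl16, a membrane-bound ligand of CXCR6 that also acts as a scavenger receptor, had 5.98, 7.26 and 7.26 TPM with EPZ5676 and 6.52, 4.33 and 6.84 TPM in controls, against 1.40, 1.05 and 0.84 TPM in fresh lung. It rose in both comparisons (log2 fold change 2.64 ± 0.38 and 2.66 ± 0.38, edgeR adjusted p = 0.000357 and 0.000413). Its receptor Cxcr6 stayed at or below 0.28 TPM and was listed at 0 in all fresh libraries. Cxcl15 (lungkine), which in the mouse is made by lung epithelium and attracts neutrophils, had 14.2, 4.65 and 6.63 TPM with EPZ5676 and 10.1, 10.8 and 3.34 TPM in controls, against 5.86, 2.18 and 2.84 TPM in fresh lung. The groups overlapped, and it did not pass the threshold (log2 fold change 1.22 ± 0.51 and 1.17 ± 0.51, edgeR adjusted p = 0.0834 and 0.101). With EPZ5676 the value was 0.70 without EPZ5676 1 and 1.74 without E11.5 1, where it passed, and in controls it passed without E11.5 1 (1.69) or Control 3 (1.49). DESeq2 also called it with EPZ5676 but not in controls.

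The other neutrophil ligands were near the limit of detection. Cxcl1 was listed at 0 in all fresh libraries and had 1.01, 1.15 and 0.52 TPM with EPZ5676 and 0.79, 0.66 and 0.26 TPM in controls. With 15 reads in the EPZ5676 group and 10 in the control group, and a floor of 3 reads over the fresh group, its CPM was at least 4.53-fold and 2.87-fold higher. Cxcl5 had 0.61 to 1.26 TPM with EPZ5676, 0.49 to 1.02 TPM in controls and at most 0.16 TPM in fresh lung, and Cxcl2 and Cxcl3 never exceeded 0.48 TPM. Of the interferon-inducible ligands Cxcl10 had 0, 1.33 and 0.69 TPM with EPZ5676 and 1.76, 0.49 and 0.44 TPM in controls and was listed at 0 in fresh lung, Cxcl9 had 1 read in all, and Cxcl11 had none. Cxcr2, the neutrophil receptor of these ligands, had 0.83, 0.70 and 0.55 TPM with EPZ5676 and 0.69, 0.66 and 0.62 TPM in controls, against 1.27, 0.98 and 1.30 TPM in fresh lung (edgeR adjusted p = 0.0951 and 0.0895 for EPZ5676 and controls). Cxcr1 was at or below 0.51 TPM.

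CXCL12 with its receptors is the axis that guides progenitors and vessels in many embryonic organs, and its genes were among the most abundant members. Cxcl12 (chromosome 6, 117168535 to 117181367, plus strand, GRCm38) had 67.9, 73.6 and 45.8 TPM with EPZ5676 and 62.6, 43.3 and 48.4 TPM in controls, against 79.5, 67.1 and 58.7 TPM in fresh lung. The groups overlapped in TPM, and the fit to counts gave a fall in controls (log2 fold change -0.57 ± 0.18, edgeR adjusted p = 0.0312) and a value that did not pass with EPZ5676 (-0.42 ± 0.18, adjusted p = 0.0937). EPZ5676 against control gave 0.16 ± 0.18, which turned to -0.0062 without EPZ5676 2. Cxcr4, the signalling receptor, had 35.3, 19.4 and 34.7 TPM with EPZ5676 and 46.6, 25.4 and 14.2 TPM in controls, against 15.7, 10.7 and 11.6 TPM in fresh lung. It rose in both comparisons (log2 fold change 1.05 ± 0.33 and 1.03 ± 0.33, edgeR adjusted p = 0.0273 and 0.032), although Control 3 lay inside the range of fresh lung. Ackr3, the atypical receptor that takes up CXCL12, fell to 6.04, 6.35 and 7.97 TPM with EPZ5676 and to 9.88, 6.05 and 6.71 TPM in controls, against 12.7, 10.8 and 9.91 TPM in fresh lung (log2 fold change -0.64 ± 0.17 and -0.48 ± 0.17, edgeR adjusted p = 0.0122 and 0.0439).

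Each call of these 3 genes could be lost by leaving out a single library, and most of them by leaving out any of several. In controls against fresh lung the Cxcl12 call was lost without Control 1, Control 2, E11.5 1 or E11.5 2 (log2 fold change -0.68 to -0.46 over all leave-outs, highest edgeR adjusted p 0.101). The Cxcr4 call was lost without Control 1 (0.61), Control 2 (1.07), E11.5 2 (0.90) or E11.5 3 (1.00), with a highest adjusted p of 0.114. For Ackr3 it was lost without any 1 of 7 libraries, the exceptions being Control 3 and EPZ5676 1 (-0.56 to -0.38, highest adjusted p 0.147). With EPZ5676 against fresh lung the Cxcr4 call was lost without EPZ5676 1, EPZ5676 3, E11.5 2 or E11.5 3 (0.91 to 1.23, highest adjusted p 0.0993), the Ackr3 call without EPZ5676 1 (adjusted p = 0.0502), and Cxcl12 passed without EPZ5676 2 (-0.58, adjusted p = 0.0354) and was -0.26 without EPZ5676 3 (adjusted p = 0.263). Endothelial markers fell, as Ackr3 did and Cxcr4 did not: all 10 fell in controls and 9 of 10 with EPZ5676. Of all genes tested, 16.6% were lower in controls and 17.9% with EPZ5676. The summed TPM of the 10 markers was 97.5, 46.2 and 59.2 with EPZ5676 and 125, 54.8 and 28.2 in controls, against 282 to 309 in fresh lung. Within the controls Cxcr4 and this sum had the same order, highest in Control 1 and lowest in Control 3. In bulk tissue fewer cells of a type and less RNA per cell cannot be told apart, and the part of endothelium in these values was not tested.

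**Figure D4:**
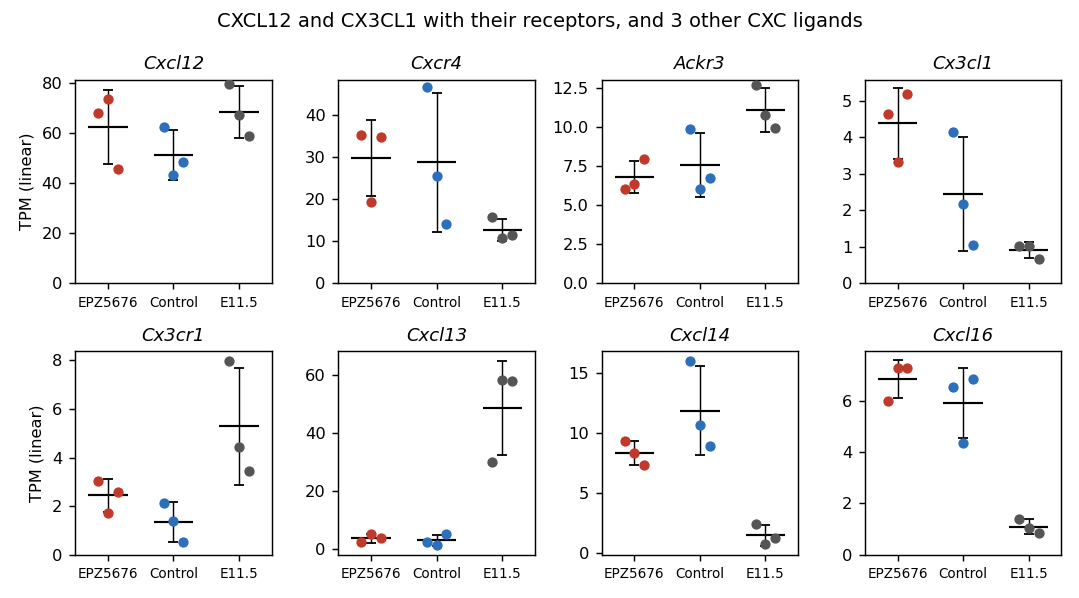
TPM (y axis, linear) of Cxcl12, Cxcr4, Ackr3, Cx3cl1, Cx3cr1, Cxcl13, Cxcl14 and Cxcl16, with EPZ5676, Control and E11.5 from left to right, points for libraries and bars for the mean ± SD of 3. Cxcl12 overlaps between all groups, Cx3cl1 and Cx3cr1 differ in opposite directions, and Cxcl13 is at most 5.19 TPM in cultured libraries, against 30.0 to 58.2 TPM in fresh lung.

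CX3CL1 (fractalkine), a membrane-bound ligand, and CX3CR1, its receptor on macrophages and monocytes, went in opposite directions. Cx3cl1 had 4.63, 3.31 and 5.19 TPM with EPZ5676 and 4.13, 2.17 and 1.05 TPM in controls, against 1.02, 1.03 and 0.66 TPM in fresh lung, and rose in both comparisons (log2 fold change 2.40 ± 0.49 and 1.66 ± 0.50, edgeR adjusted p = 0.00308 and 0.0228). Control 3 was barely above fresh lung, and the call in controls was lost without Control 1 (1.06, adjusted p = 0.105), E11.5 2 (1.45, 0.0893) or E11.5 3 (1.59, 0.0792). Cx3cr1 fell to 3.04, 1.71 and 2.57 TPM with EPZ5676 and to 2.13, 1.40 and 0.51 TPM in controls, against 7.99, 4.42 and 3.43 TPM in fresh lung. No cultured library reached the lowest fresh one (log2 fold change -1.12 ± 0.40 and -1.96 ± 0.42, edgeR adjusted p = 0.0479 and 0.00487 for EPZ5676 and controls). The EPZ5676 call was lost without any of E11.5 1 (-0.69, adjusted p = 0.216), E11.5 2 (-1.26), Control 2 (-1.13) or the 3 EPZ5676 libraries (-1.26, -0.95 and -1.17), whereas in controls it held without each library. EPZ5676 against control gave 0.84 ± 0.43 for Cx3cr1 (edgeR adjusted p = 0.766), which ranged from 0.51 to 1.25 with a library left out. Xcl1 was listed at 0 throughout and Xcr1 never exceeded 0.17 TPM.

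The CC ligands of lymphoid homing and of barrier tissue mostly did not pass. Of the 5 tested, 0 were called in controls and 1, Ccl21a, with EPZ5676. Of all genes tested, 37.7% were called in controls and 40% with EPZ5676, and 5 genes are too few to tell apart from these shares. Ccl21a, a CCR7 ligand of lymphatic vessels and lymphoid tissue, had 15.03, 18.3 and 23.5 TPM with EPZ5676 and 21.6, 22.8 and 2.34 TPM in controls, against 6.67, 1.48 and 0 TPM in fresh lung. Control 3 lay inside the range of fresh lung, which all EPZ5676 libraries exceeded (log2 fold change 2.79 ± 0.96 and 2.48 ± 0.97, edgeR adjusted p = 0.0463 and 0.0739 for EPZ5676 and controls). The EPZ5676 call was lost without any 1 of 7 libraries (log2 fold change 2.21 to 2.97 there), namely all but E11.5 1 and Control 3, and without E11.5 1 the value was 4.76. In controls it passed without E11.5 1 (4.45) or Control 3. Its count was not whole in 7 of 9 libraries, so part of it may belong to near-identical copies, of which Ccl21b was listed with 1 read. Ccl19, the other CCR7 ligand, had 5.20, 8.58 and 4.09 TPM with EPZ5676 and 6.05, 3.96 and 13.3 TPM in controls, against 7.98, 7.33 and 11.8 TPM in fresh lung, with overlapping groups (edgeR adjusted p = 0.407 and 0.906). Ccr7 was at or below 0.26 TPM.

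Ccl25, a thymic and gut ligand of CCR9, had the closest group means of the tested members. It had 8, 10.9 and 6.08 TPM with EPZ5676 and 9.67, 7.83 and 7.03 TPM in controls, against 7.93, 10.5 and 6.89 TPM in fresh lung (log2 fold change -0.11 ± 0.20 and -0.08 ± 0.20, edgeR adjusted p = 0.685 and 0.771). Ccr9 was at or below 0.25 TPM. Ccl28, a mucosal ligand of CCR10, had 2.44, 0.59 and 0.60 TPM with EPZ5676 and 2.33, 0.78 and 0 TPM in controls, against 0.58, 0.20 and 0.51 TPM in fresh lung, and did not pass (edgeR adjusted p = 0.193 and 0.429), although EPZ5676 and fresh lung did not overlap. Ccr10 was at or below 0.29 TPM.

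Among CC receptors Ccr1 was the only one with enough reads to test, and it did not pass against fresh lung (1.98, 0.70 and 1.48 TPM there, edgeR adjusted p = 0.0672 for EPZ5676 and 0.878 for controls). With EPZ5676 it did pass without Control 1, without Control 3, without the filter and in a fit to the 6 libraries compared. Ccr2, the receptor of CCL2, had 0.20, 0.07 and 0.13 TPM with EPZ5676 and 0.05, 0.16 and 0.10 TPM in controls, against 0.38, 0.39 and 0.28 TPM in fresh lung, with 1 to 8 reads a library. This receptor was thus read from few counts in every group, while its ligand Ccl2 was higher in cultured than in fresh lung. Ccr3, the eotaxin receptor, had 1 read in all, and Ccr4 and Ccr6 never exceeded 0.33 TPM. Of the atypical receptors beside Ackr3, Ackr1, which carries chemokines on red cells and venules, had 1.35, 0 and 0.22 TPM with EPZ5676 and 1.66, 0.53 and 0.89 TPM in controls, against 2.09, 2.51 and 8.09 TPM in fresh lung, from at most 12 reads a library. With EPZ5676 it passed the test without the filter and without Control 1, Control 2, Control 3 or EPZ5676 1. Summed TPM of 7 erythroid genes was 62.9 to 944 with EPZ5676 and 106 to 917 in controls, against 16709 to 23858 in fresh lung. Ackr2 and Ackr4 were at or below 0.45 TPM.

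Ccl7 and Ccl12, which act with CCL2 on CCR2, were detected below the filter. Ccl7 had 4.79, 9.08 and 1.35 TPM with EPZ5676 and 2.33, 1.44 and 2.27 TPM in controls, against 0.36, 0.37 and 0 TPM in fresh lung. With 47 and 20 reads in the cultured groups and 2 in fresh lung its ratio of CPM was 21.3 (5.58 to 181) for EPZ5676 and 8.62 (2.09 to 76.1) for controls. Where other settings let Ccl7 into the test it passed with EPZ5676 under DESeq2, without the filter and in 7 of the leave-outs, and in controls without the filter and without EPZ5676 3. Ccl12 had 1.55, 4.51 and 3.51 TPM with EPZ5676 and 2.68, 0.62 and 2.79 TPM in controls, against 3.68, 1.87 and 1.23 TPM in fresh lung, with overlapping groups.

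Like the CC ligands, most macrophage markers were higher in cultured than in fresh lung, but the sums did not follow each other within the cultured groups. Of 16 macrophage genes 15 could be tested: 13 rose and 0 fell with EPZ5676 against fresh lung, and 13 rose and 1 fell in controls. Of all genes tested, 40% were called with EPZ5676 and 37.7% in controls. The list's median log2 fold changes were 2.49 and 2.00, beside 0.02 over all genes. The summed TPM of the 16 genes was 1092, 997 and 1184 with EPZ5676 and 882, 873 and 732 in controls, against 88.5, 56.8 and 74.0 in fresh lung. Lyz2 alone was the largest part of each cultured sum, so the sum does not stand for the 16 genes evenly. The highest were Lyz2, lysozyme, with 595, 626 and 650 TPM with EPZ5676 and 383, 505 and 442 TPM in controls, against 5.18, 3.05 and 2.61 TPM in fresh lung, and Tyrobp, Cd68 and Mpeg1. Cd163, a scavenger receptor of tissue macrophages, was listed at 0 in 8 of 9 libraries. The 1 listed gene that fell in controls was F13a1 (log2 fold change -2.85 ± 0.50, edgeR adjusted p = 0.0019). With EPZ5676 it had 0.26 ± 0.42 (adjusted p = 0.656). Aif1 did not pass in either comparison (-0.30 ± 0.52 in each). Cx3cr1, a member outside this list, fell in both comparisons. The log2 fold changes of Tyrobp and Cd68, a myeloid adaptor and a lysosomal protein, were 4.16 ± 0.27 and 3.99 ± 0.24 with EPZ5676 and 4.06 ± 0.27 and 4.10 ± 0.24 in controls. EPZ5676 2 had the lowest macrophage sum of its group and the highest sum of the 12 CC ligands (200 TPM, against 131 in EPZ5676 1 and 104 in EPZ5676 3). Ccl6 alone made up 101 TPM of the ligand sum in EPZ5676 2. That library had the highest Ccl6, Ccl3 and Ccl2 of its group, the lowest Ccl9, and Ccl4 and Ccl11 between those of the other EPZ5676 libraries. Control 3 likewise had the lowest macrophage sum and the highest ligand sum of the controls (211 TPM, against 128 in Control 1 and 90.5 in Control 2). It had the highest Ccl6, Ccl3 and Ccl2 of the controls, the lowest Ccl4, and Ccl9 and Ccl11 between those of the other control libraries. Of 10 neutrophil markers 2 could be tested, of which 1 fell with EPZ5676 and 0 changed in controls. Ly6g was at 0 throughout. The 10 neutrophil genes had a summed TPM of 0.21 to 5.36 with EPZ5676 and 1.09 to 18.1 in controls, against 4.95 to 10.8 in fresh lung. The lymphocyte list of 10 genes summed to 3.82 to 7.67 TPM with EPZ5676 and 1.36 to 6.88 TPM in controls, against 1.63 to 5.65 TPM in fresh lung. The T-cell genes Cd3e and Cd3g were listed at 0 in every library, while Trac, a T-cell receptor segment, reached 4.39 TPM with EPZ5676, 3.38 TPM in controls and 3.63 TPM in fresh lung. The 1 tested gene of this list, Il7r, the receptor of interleukin 7, rose (log2 fold change 4.30 ± 0.65 and 4.18 ± 0.66, edgeR adjusted p = 0.000538 and 0.000784 for EPZ5676 and controls). How far macrophage number or macrophage RNA content enters the ligand values was not tested.

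**Figure D5:**
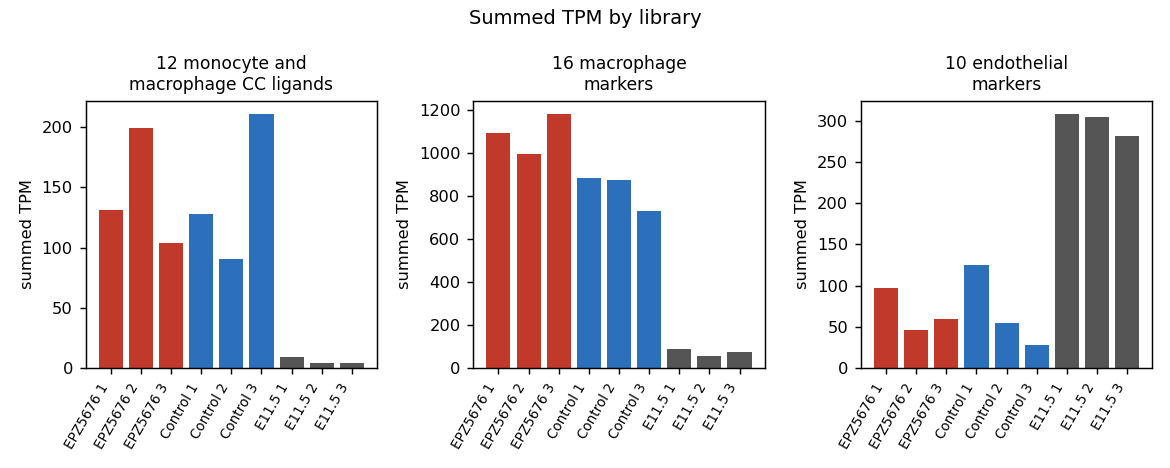
Summed TPM (y axis, from 0) of the 12 listed CC ligands of monocytes and macrophages (Ccl11 included), 16 macrophage markers and 10 endothelial markers in each library, EPZ5676 in red, Control in blue and E11.5 in grey. Ligand and macrophage sums are high in all 6 cultured libraries and low in the 3 fresh ones, and the endothelial sum is the reverse. Lyz2 is the largest part of the macrophage sum in the cultured libraries.

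Genes that carry the receptor signal inside the cell moved in both directions. Of 37 tested G proteins and effectors of chemokine receptors, 13 rose and 8 fell with EPZ5676 against fresh lung and 11 rose and 5 fell in controls, where 40% and 37.7% of all genes were called. The list's median log2 fold changes were 0.0052 and 0.033, beside 0.02 over all genes. The most abundant was Cdc42, a GTPase of cell polarity, with a log2 fold change of 0.03 ± 0.10 with EPZ5676 and 0.08 ± 0.10 in controls. Gng5, a G protein subunit, fell (-0.37 ± 0.09 and -0.30 ± 0.09, edgeR adjusted p = 0.00711 and 0.0228). Of 14 tested genes of receptor damping, arrestins, receptor kinases and RGS proteins, 5 rose and 3 fell with EPZ5676 (40% of all genes were called) and 4 rose and 1 fell in controls (37.7% of all genes). Rgs2 rose with EPZ5676 (0.74 ± 0.17, edgeR adjusted p = 0.00584) and had 0.30 ± 0.17 in controls (adjusted p = 0.197). In EPZ5676 against control 0 genes of either list passed.

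Of 16 tested genes whose products cut or hold chemokines outside the cell, 10 rose and 1 fell with EPZ5676 and 11 rose and 1 fell in controls, with median log2 fold changes of 0.45 and 0.50. Of all genes tested, 40% were called with EPZ5676 and 37.7% in controls. Mmp2, a protease that cleaves CXCL12, had 159, 200 and 175 TPM with EPZ5676 and 181, 195 and 267 TPM in controls, against 92.9, 88.7 and 92.5 TPM in fresh lung (log2 fold change 0.98 ± 0.20 and 1.23 ± 0.20, edgeR adjusted p = 0.00373 and 0.00123). Of 9 NF-kB feedback genes, all tested, 4 rose with EPZ5676, 5 rose in controls and 0 fell, with median log2 fold changes of 0.92 and 0.94. These counts stand beside the same 40% and 37.7% of all genes called. Icam1, an adhesion molecule for leukocytes, had a log2 fold change of 1.86 ± 0.25 and 1.83 ± 0.25 (edgeR adjusted p = 0.000226 and 0.000298). Nfkbia, the inhibitor of NF-kB, had 21.5, 37.1 and 27.8 TPM with EPZ5676 and 24.5, 26.2 and 65.2 TPM in controls, against 13.5, 11.6 and 11.3 TPM in fresh lung, and passed in controls (adjusted p = 0.0227) but not with EPZ5676 (adjusted p = 0.0705). Of 10 interferon-stimulated genes 3 could be tested. Bst2 rose in both comparisons, and Oasl2 had a log2 fold change of -1.55 ± 0.56 in each, past the threshold with EPZ5676 (edgeR adjusted p = 0.0485) and not in controls (0.0507).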

How the data were processed

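RNA-seq was made from 9 mouse libraries, in 3 groups of 3. Per the labels' protocols, TRIzol RNA was made into libraries with a Vazyme V8 kit; RSEM, Bowtie2 and mm10 are listed without versions or roles, per the submitters' processing notes. The sources used here do not state strand, which leaves overlapping genes uncertain. The authors deposited expected counts, which are estimated, divide reads between near-identical genes and were not whole for 12.5% to 15.3% of values, and TPM, which summed to 998977 to 999233 a library. All gene symbols matched GENCODE M21 (GRCm38).

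Expected counts were rounded, filtered with filterByExpr (minimum count 10) and scaled by TMM. All 9 libraries entered 1 fit by group (6 residual degrees of freedom), tested two-sided with edgeR 4.0.16 in R 4.3.3 (robust quasi-likelihood, legacy method), with Benjamini-Hochberg adjustment over all 15158 genes and a threshold of 0.05. SEs were derived from the F statistic. The fit was tested on simulated data. No library pair within a group agreed within sampling noise (chi-square over its degrees of freedom was 2.69 to 31.1), and each was counted once.

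Members and lists were chosen with earlier results of these data known. By rule, every member that passed the filter was named, as were fixed ligand and receptor pairs and, of other genes, at most the 4 most abundant of a list. Outside this rule Cd163, Ly6g, Cd3e and Cd3g were named as markers at 0, and F13a1 and Aif1 as macrophage genes that did not rise. All of these were named after their values were seen, as were members below 0.1 TPM. Motifs were chosen after the windows were read. Promoters came from RefSeq for 46 members. Protein sequences are not used here, and some genes are not reported here. Intervals and floors cover counting error only. Alternatives were DESeq2 1.42.0, scaling by RLE or upper quartile, other filters, a fit to the 6 libraries compared, a replicate block, limma 3.58.1 on log2(TPM + 1) and log2(TPM + 0.1), and each library left out, with edgeR's newer quasi-likelihood method added after the data were seen. Figures used matplotlib 3.10.9.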

Additional observations from a re-analysis of the deposited data

How the results depend on the processing

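Of the 22 members, 0 were called in EPZ5676 against control under all 19 alternatives, while over all genes edgeR's 0 calls became 104 with DESeq2, 76 without a filter on low counts, 1 with the replicate block and 0 to 26 with a library left out, the 26 without EPZ5676 2. Against fresh lung 14 members were called in each comparison, with a range of 10 to 16 in controls and 11 to 17 with EPZ5676 when a library was left out. Members detected were 46 at a limit of 0.1 TPM, against 27 at 1 TPM. Values that turned sign were all below the threshold: without a library Cxcr4 in EPZ5676 against control (range -0.25 to 0.44: -0.0209 without Control 2, -0.25 without Control 3, -0.0309 without EPZ5676 1, -0.11 without EPZ5676 3), Cxcl12 there (-0.0062 without EPZ5676 2, up to 0.32), and Ccl25 in controls against fresh lung (0.0156 without E11.5 2, down to -0.18). Against fresh lung, among the members whose fold changes are given for it, 32 single values in controls and 24 with EPZ5676 lost the threshold and 5 and 4 gained it. Limma-trend on TPM lost Ackr3, Cxcl12, Cxcr4 and Cx3cl1 in controls and Cx3cr1 with EPZ5676. DESeq2 lost Ackr3 in controls and Ccl21a with EPZ5676. Without the filter Ackr3, Cxcl12 and Cxcr4 were lost in controls, and Ccl21a and Cxcr4 with EPZ5676. The fit to the 6 libraries compared lost Ackr3 in controls. Among other members, Ccr1, Ccl7 and Ackr1 passed with EPZ5676 and Ccl7 in controls in the settings given with them. Cxcl5 and Cxcl1 passed without the filter in both comparisons and with DESeq2 for EPZ5676, and Cxcl10 passed without the filter in both. The values of Ccl2, Ccl3, Ccl4, Ccl6, Ccl9, Ccl11, Cxcl13, Cxcl14 and Cxcl16 passed in both comparisons wherever they could be tested. Ccl2, Ccl4 and Ccl11 were not tested at 50 counts in 3 libraries, nor Ccl11 in the fits to the 6 libraries compared. Same-numbered cultured libraries shared only a number (correlations of their deviations -0.0468 to 0.457), and the replicate block left 14 members called in each comparison with fresh lung. There Ackr3 (controls) and Ccl21a (EPZ5676) no longer passed and Cxcl15 passed in both. Members with few reads, such as most CC receptors, are limited by depth.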

Other observations

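Platelet chemokines whose symbols fall outside the naming rule were lower in cultured than in fresh lung. Pf4 (CXCL4), stored in platelets and also made by some macrophages, had 8.93, 3 and 4.62 TPM with EPZ5676 and 3.13, 1.63 and 0 TPM in controls, against 24.8, 22.3 and 31.0 TPM in fresh lung (log2 fold change -2.06 ± 0.53 and -3.60 ± 0.61, edgeR adjusted p = 0.0106 and 0.0012 for EPZ5676 and controls). Ppbp, the precursor of CXCL7, had 1.03, 0 and 0 TPM with EPZ5676 and 0.18, 0 and 0 TPM in controls, against 9.49, 13.3 and 11.8 TPM in fresh lung, and fell in both comparisons (edgeR adjusted p = 0.000417 and 0.00024).

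Leukocyte attractants of other families also differed. Of 14 tested, 9 rose and 1 fell with EPZ5676 against fresh lung, and 6 rose and 1 fell in controls, while 0 passed in EPZ5676 against control. Against fresh lung 40% of all genes tested were called with EPZ5676 and 37.7% in controls. Spp1, osteopontin, had 677, 791 and 1036 TPM with EPZ5676 and 650.1, 626 and 1016 TPM in controls, against 0.18, 0.19 and 0.19 TPM in fresh lung (log2 fold change 11.99 ± 0.51 and 11.93 ± 0.51, edgeR adjusted p = 1.26e-06 and 2.05e-06). Anxa1, which acts on formyl peptide receptors, had 142, 106 and 186 TPM with EPZ5676 and 131, 103 and 72.7 TPM in controls, against 4.45, 0.48 and 1.94 TPM in fresh lung (6.14 ± 0.45 and 5.64 ± 0.45, edgeR adjusted p = 2.71e-05 and 5.27e-05). Mif, a cytokine that also binds CXCR2 and CXCR4, fell to 272, 292 and 234 TPM with EPZ5676 and to 284, 244 and 282 TPM in controls, against 406, 504 and 482 TPM in fresh lung (log2 fold change -0.83 ± 0.14 and -0.76 ± 0.14, edgeR adjusted p = 0.00105 and 0.00199).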
